A study of Danio rerio with 6 samples.

Results

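dre-mir-462 (ENSDARG00000082377) and dre-mir-731 (ENSDARG00000080568) are 2 miRNA genes of the zebrafish, and they make up 2 of the 434 annotated miRNA loci counted in this series. Small RNAs were sequenced from telencephalic hemispheres of adult Danio rerio, with 3 libraries from healthy hemispheres that received no treatment (control) and 3 from hemispheres that received an injury (injured). Per the study's methods, the injury was made by pushing a needle into one hemisphere, each hemisphere was processed separately, and RNA was taken within the week that followed. The study used the opposite hemisphere of injured fish as the control of its mRNA libraries and describes the RNA preparation for small RNAs as the same. The control hemispheres here, labelled healthy, may therefore come from injured fish, and the labels do not say which libraries share a fish. The labels give no strain, age, sex or transgene. The pair was picked by its identifiers with the increase of both loci in these libraries already known. The fold changes and calls below are therefore the values that chose the pair, and they are given as a description and not as a test.

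A miRNA gene is transcribed into a hairpin, which Drosha and Dicer cut to a short mature RNA that guides Argonaute to matching messenger RNAs. Hairpins that lie next to each other can come from a single transcript and are then made together. In fish, miR-462 and miR-731 are known for their induction by viral infection and interferon, and in zebrafish also by hypoxia. They are regarded as the fish counterparts of mir-191 and mir-425 of mammals, which lie within the gene DALRD3 in human. In the RefSeq annotation of zebrafish (assembly GRCz12tu, not the build of the counts), the 2 genes are direct neighbors with 0 genes between them. They are flanked there by impdh2, which encodes an enzyme of guanine nucleotide synthesis, and by dalrd3.

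The control libraries held between 2475462 and 4008607 reads at miRNA loci and the injured libraries between 11473850 and 14545864. Every injured library was deeper than every control library, so depth parts the libraries in the same way as condition. With all libraries thinned to 2475462 reads, the log2 fold changes of dre-mir-462 and dre-mir-731 were 0.85 and 1.02. Both loci were called there, beside 10.1% of the 169 loci tested, and nothing is read from these calls. Thinning evens out the number of reads only. Any other difference between libraries that goes with depth cannot be told apart from condition. Levels are given as reads per 1000000 reads at miRNA loci (RPM). Of the 434 loci, 188 had a mean normalized count above 10 and were tested, and both members were among them. The labels do not say that libraries of a group come from different fish, so the spread between them may be partly technical.

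dre-mir-462, the more abundant locus of the pair, stood at 5774, 9416 and 8061 RPM in control 1, 2 and 3. In injured 1, 2 and 3 it stood at 11855, 16095 and 15902 RPM. The lowest injured library was thus 1.26 times the highest control library, and the groups did not overlap. The group means were 7750 ± 1841 and 14618 ± 2394 RPM (SD, n = 3 each). dre-mir-462 ranked between 20 and 28 among all loci in the control libraries and between 13 and 15 in the injured libraries. The difference of 6867 RPM between the means was the second largest gain of the 188 loci after dre-mir-182. The gain of dre-mir-182, 12367 RPM, came with an SD of 14256 RPM among injured libraries and was not called.

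dre-mir-731, its neighbor, stood at 639, 992 and 862 RPM in control 1, 2 and 3. In injured 1, 2 and 3 it stood at 1446, 2048 and 1739 RPM. The groups did not overlap here either, and the lowest injured library was 1.46 times the highest control library. The means were 831 ± 179 and 1744 ± 301 RPM (SD, n = 3 each), and the gain of 913 RPM was number 10 among the tested loci. Both members thus had groups that did not overlap, with the injured libraries higher. This held for 17.0% of all tested loci, and for 22.9% in either direction. Nothing is read from it, since these values chose the pair.

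**Figure D1:**
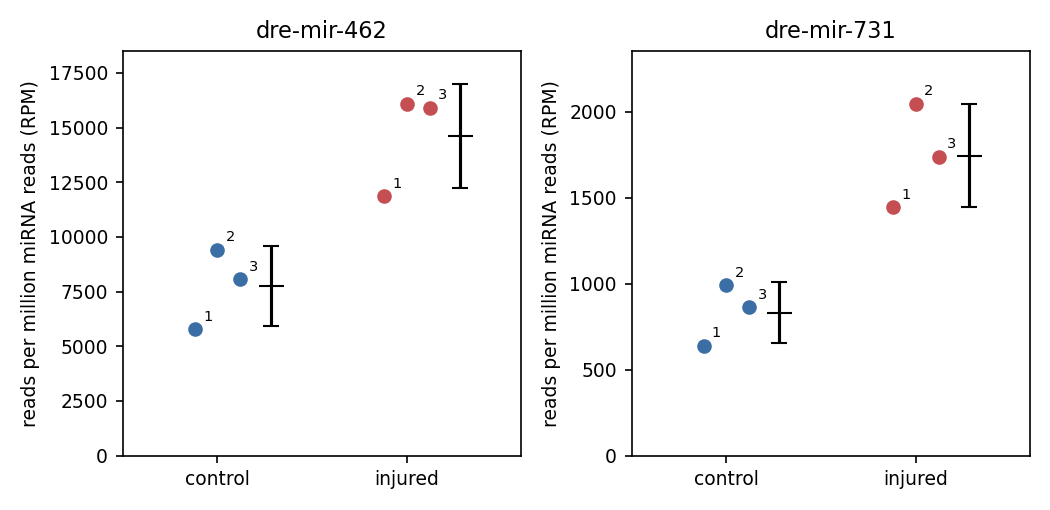
Levels of dre-mir-462 (left) and dre-mir-731 (right) in RPM on axes from 0, with 1 point per library numbered by replicate and bars for the mean ± SD of 3 libraries. Library 1 is the lowest and library 2 the highest of its group at both loci, and the injured libraries lie above all control libraries.

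In the fit over all tested loci, the log2 fold change of dre-mir-731 between injured and control was 1.04 (SE 0.19), a fold of 2.05. That of dre-mir-462 was 0.88 (SE 0.20), a fold of 1.84. Both were called higher by the quasi-likelihood test of edgeR (Benjamini-Hochberg adjusted p = 0.0134 for dre-mir-731 and 0.0302 for dre-mir-462). These calls belong to the choice of the pair and nothing is read from them. The same test called 12.8% of all loci, 10.6% as higher and 2.13% as lower. Among the 20 loci called higher, dre-mir-731 had the fold change of rank 5 and dre-mir-462 that of rank 9. Over all 188 loci the median was 0.03.

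The call of dre-mir-462 did not hold in all fits that left out 1 library. It was lost without control 1 (log2 fold change 0.71; edgeR adjusted p = 0.0579), control 3 (0.93; edgeR adjusted p = 0.0843), injured 2 (0.81; edgeR adjusted p = 0.0542) or injured 3 (0.80; edgeR adjusted p = 0.110). dre-mir-731 missed the threshold when control 3 (1.08; edgeR adjusted p = 0.0563) or injured 3 (1.02; edgeR adjusted p = 0.0519) was left out. Both loci kept a positive fold change in each of these fits. Calls were lost over all loci too. The share of tested loci called was 12.8% with all libraries. It was 5.24% without control 1, 7.45% without control 2 and 5.29% without control 3. Without injured 1, 2 or 3 it was 13%, 10.8% and 5.38%. Lost calls were thus not limited to the pair, but they were not general either. The 4 tested loci of the infection and inflammation list, given below, stayed called in each of these fits. Nothing is read about the pair from these counts.

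**Figure D2:**
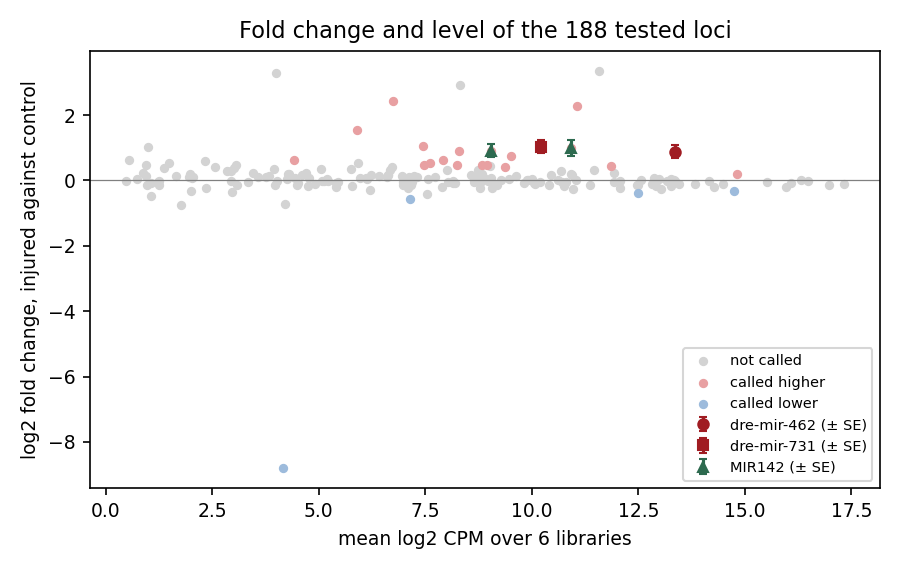
Log2 fold change of injured against control (vertical) against the mean log2 CPM over 6 libraries (horizontal) for the 188 tested loci, 1 point each, with bars of ± 1 SE for the pair and the 2 MIR142 loci. dre-mir-462 and dre-mir-731 lie at log2 fold changes of 0.88 and 1.04, while most loci of like level lie near 0.

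Loci of nearly the same level as the members had smaller differences between the groups. The loci next to dre-mir-462 in mean level were dre-mir-30b, with 10135 ± 987 RPM in control and 10553 ± 647 RPM in injured libraries, and dre-mir-107, with 10388 ± 397 and 10649 ± 1068 RPM (SD, n = 3 each). Those next to dre-mir-731 were MIR190A, with 1170 ± 82.2 and 1164 ± 84.3 RPM, and mir7a-3, with 1402 ± 36.8 and 1314 ± 156 RPM (SD, n = 3 each). The control and injured libraries overlapped at these 4 loci, and the edgeR adjusted p was 0.932 for dre-mir-30b, 0.975 for dre-mir-107, 0.855 for MIR190A and 0.462 for mir7a-3. Most loci were like this, since 22.9% of all tested loci had groups that did not overlap and 12.8% were called. The pair was chosen for its increase, so smaller differences at other loci follow from that choice, and nothing is read from them.

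The members also varied more within a group than most loci. The coefficient of variation of dre-mir-462 was 23.8% in control and 16.4% in injured libraries, and that of dre-mir-731 was 21.5% and 17.2%. Counting error was far smaller. The 95% exact Poisson interval of dre-mir-731 in control 1, its library with the fewest reads (1678), ran from 609 to 670 RPM. The SD within groups on the log2 scale was 0.31 for dre-mir-462 and 0.29 for dre-mir-731, against a median of 0.15 over all tested loci. Of the 188 loci, 32 varied more than dre-mir-462 and 36 more than dre-mir-731. Such intervals cover counting error only, since PCR copies of a molecule are not told apart.

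The 2 loci deviated together in each library. On the log2 CPM scale, control 1 lay below the control mean by −0.39 for dre-mir-462 and −0.35 for dre-mir-731. Control 2 lay above it by 0.28 and 0.25, and control 3 by 0.11 and 0.10. Injured 1 lay below the injured mean by −0.32 and −0.29, injured 2 above it by 0.15 and 0.24, and injured 3 by 0.17 and 0.05. The sign was thus the same for both loci in 6 of 6 libraries. Deviations from a group mean cancel out within the group, so these are not 6 independent agreements, and the agreement was not tested. Same-numbered libraries of the 2 groups also deviated in the same direction, and the labels do not say whether they share a fish. The root mean square difference between the loci was 0.07 for these deviations, against medians of 0.28 and 0.27 for the distance of any other locus from dre-mir-462 and from dre-mir-731. The median stands for a typical locus only. In these deviations mir202 lay nearer to dre-mir-462 (0.0655), and MIR142 (ENSDARG00000082467) nearer to dre-mir-731 (0.0641), than the members to each other (0.0683). mir202 had only 21 to 128 reads per library, so counting error weighs more in its deviations. No correlation is given, since the 6 libraries fall into 2 groups.

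The ratio of the loci needs no scaling, because both counts come from the same library. dre-mir-731 had 0.111, 0.105 and 0.107 reads per read of dre-mir-462 in control 1, 2 and 3. In injured 1, 2 and 3 it had 0.122, 0.127 and 0.109. Injured 1 and 2 lay above the controls, whereas injured 3 lay within their range. The means were 0.108 ± 0.00270 and 0.120 ± 0.00919 (SD, n = 3 each), a difference of 0.15 on the log2 scale. The share of dre-mir-731 in the reads of the pair was 9.86% (95% exact binomial interval 9.73 to 9.99) in injured 3, and 10.9% (10.7 to 11.01) and 11.3% (11.2 to 11.4) in injured 1 and 2. These intervals did not overlap. They treat reads as independent, and PCR copies of a molecule are not told apart, so they can be too narrow. Whether the split between the loci varied among injured libraries by more than counting error was not tested. The split is a ratio of reads, not of molecules, since the ligation and the length limit on inserts can favor one mature RNA over another.

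**Figure D3:**
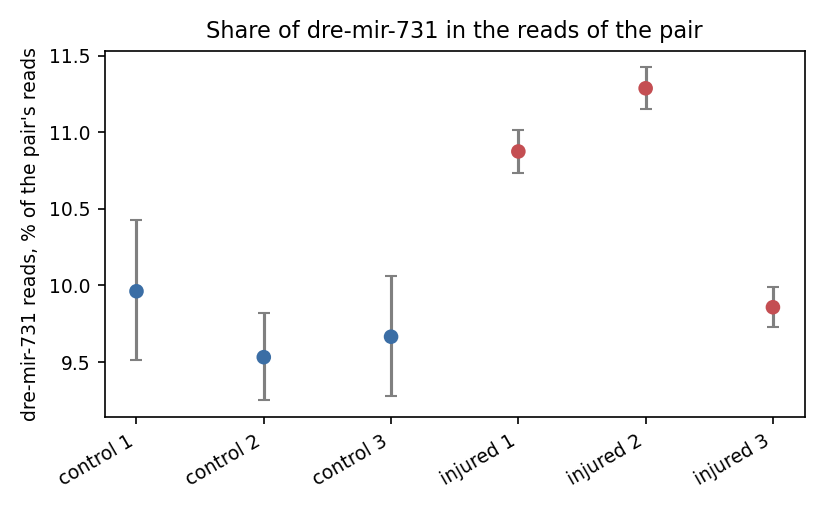
Share of dre-mir-731 in the summed reads of both loci, in percent, for each library, with 95% exact binomial intervals; the axis does not start at 0. Injured 1 and 2 stand at 10.9% and 11.3%, above the controls, and injured 3 at 9.86% lies among them.

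Together the loci took 0.641%, 1.04% and 0.892% of the miRNA reads in control 1, 2 and 3, and 1.33%, 1.81% and 1.76% in injured 1, 2 and 3. The mean share of the pair was 1.91 times higher in injured libraries.

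Other pairs of neighboring miRNA genes were set beside this pair. Loci with symbols in capitals, such as MIR142, were left out of the match. Of the tested loci, 104 could be matched by name to RefSeq genes, and they formed 16 direct neighbor pairs, some of which share a locus. The profiles of dre-mir-462 and dre-mir-731, each centered on its own mean over 6 libraries, differed by a root mean square of 0.10 on the log2 scale. This was rank 4 of the 16, and the other 15 ranged from 0.04 to 0.72 with a median of 0.16. The widest pairs were mir23a-2 with mir27c and mir130c-2 with mir301b. Their scarcer loci had means of 19 and 15 reads per library, against 12065 at dre-mir-731, so counting error weighs more in them. The closest pair was mir19d and mir93, at 0.04. The log2 fold changes of the 2 members differed by 0.15, close to the median difference of 0.16 over the other 15 pairs. The distance within the pair was thus not outside the range of neighboring miRNA genes. This distance is not scaled, and it is small for any 2 loci that vary little. The closer pairs were mir19d with mir93, mir301b with mir454b and dre-mir-727 with dre-mir-728. Their log2 fold changes ran from −0.02 to 0.04, against 0.88 and 1.04 for the members. The rank therefore does not compare how closely neighbors vary together.

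**Figure D4:**
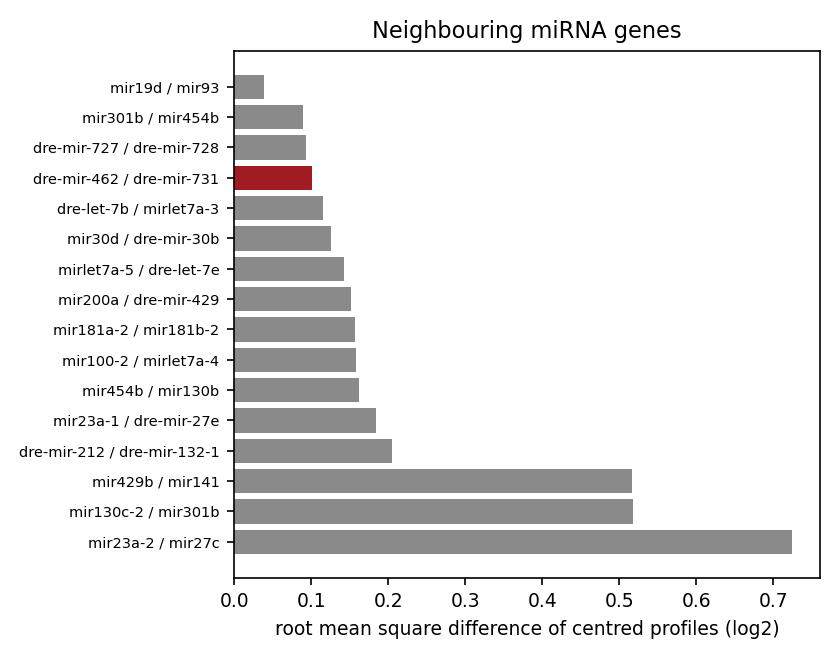
Root mean square difference (log2 CPM) between the centered profiles of 2 directly neighboring miRNA genes, for 16 pairs, as bars from 0. The bar of dre-mir-462 and dre-mir-731, in red, is 0.10, the value of rank 4.

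The loci with the most similar profile over the 6 libraries were sought among all 186 other tested loci. The nearest were the 2 loci with the symbol MIR142, the gene of a miRNA that is abundant in leucocytes. ENSDARG00000082467 lay at a root mean square distance of 0.07 from the mean profile of the pair and ENSDARG00000082167 at 0.08, against a median of 0.54 over all 186 loci. Next came mir222b (0.18), dre-mir-146b-1 (0.24) and MIR15B (0.25). dre-mir-462 was nearer to both MIR142 loci (0.08 and 0.09) than to its own neighbor dre-mir-731 (0.10). This distance includes the difference between the groups, which chose the pair. In deviations from the group means the order was the reverse. There dre-mir-731 lay at 0.0683 from dre-mir-462 and the MIR142 loci at 0.0798 and 0.0788. For dre-mir-731, dre-mir-462 was the second nearest locus, between the 2 MIR142 loci. A read that matches several loci equally well may fail the mapping quality limit, so levels at loci with shared sequence, possibly the 2 MIR142 loci, can be too low.

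MIR142 (ENSDARG00000082167) stood at 1007, 1710 and 1428 RPM in control 1, 2 and 3 and at 2037, 3326 and 3028 RPM in injured 1, 2 and 3. MIR142 (ENSDARG00000082467) stood at 299.6, 447 and 416 RPM and at 568, 896 and 776 RPM. The groups did not overlap at either locus, as at 17.0% of all tested loci with the injured libraries higher. Library 1 was the lowest and library 2 the highest of each group in RPM, as at both members. This order was also seen at loci that were not called, such as MIR190A and MIR144. The log2 fold changes of the MIR142 loci were 0.99 (SE 0.24) and 0.91 (SE 0.21), close to those of the pair. Per read of MIR142, summed over its 2 loci, the pair had 4.91, 4.83 and 4.84 reads in the controls and 5.11, 4.30 and 4.64 in the injured libraries. The 5 nearest loci were chosen for their likeness to a pair that had increased. That choice fixes the edgeR calls, which were higher for all 5. It also favors groups that do not overlap, the same order of libraries, close fold changes and a ratio to MIR142 that varies little. Nothing is read from any of these.

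**Figure D5:**
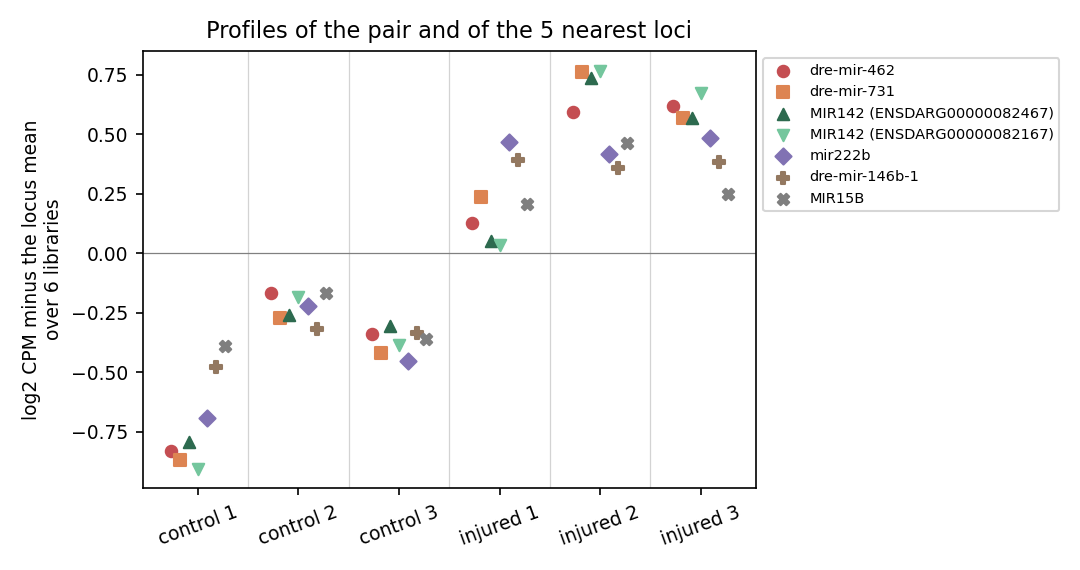
Log2 CPM minus the mean of the locus over 6 libraries (vertical) for the pair and the 5 loci with the nearest profile, by library (horizontal). All loci shown are lowest in control 1. Among the injured libraries, the pair, the 2 MIR142 loci and MIR15B are lowest in injured 1, while mir222b and dre-mir-146b-1 are not.

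Marker lists of other cells were read beside the pair. Of the leucocyte list, the 2 MIR142 loci were present and MIR223 and mir150 had 0 reads in all libraries, and with 3 reads as the limit that a count of 0 allows, this corresponds to 1.21 RPM in control 3, the library with the fewest reads, for counting error only. The summed level of the list ran from 1306 to 2156 RPM in control and from 2606 to 4222 RPM in injured libraries. Its part in the difference of the pair was not tested. The erythrocyte loci MIR144 and MIR451A together ran from 2006 to 2506 and from 2326 to 2754 RPM, and the endothelium loci from 7791 to 8098 and from 7736 to 7819 RPM. The endothelium sum came mainly from mir126a. Its other locus, MIR126, stood at 154, 636 and 641 RPM in control 1, 2 and 3 and at 620 to 718 RPM in the injured libraries. edgeR called 0 of the 2 loci in each of these 2 lists, with 0 at an unadjusted p below 0.05 and 0 called by DESeq2. Of all 188 tested loci, edgeR called 12.8% and DESeq2 17%, and 41 had an unadjusted p below 0.05. With 2 loci per list, 0 calls are not told apart from these shares, and nothing is read from them. In bulk tissue, a change in the number of cells of a type and a change in the RNA per cell cannot be told apart. The neuron list (mir-9, mir-124, mir-128 and mir-138) had reads at 17 of its 17 loci in at least 1 library, and its sum ran from 103278 to 109491 RPM in control and from 101399 to 115858 RPM in injured libraries. The sum came mainly from mir9-4, mir9-7 and mir128-1, which had reads in all libraries. The study places miR-9 in neural stem cells of the telencephalon, so the sum does not stand for neurons alone. All mir-124 loci were low, with mir124-1, the highest of them, at 15.6 to 21.8 RPM. Reads that match several loci equally well may be lost, possibly at the mir-124 loci too, so these levels can be too low. Of the 16 tested loci of the list 1 was called lower, beside 2.13% of all tested loci. It was mir128-1 (log2 fold change −0.40, SE 0.07; edgeR adjusted p = 0.0157).

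Because the pair is known for its response to infection and to hypoxia, lists of other miRNAs linked to these were compared. Of the 6 loci of the infection and inflammation list, 4 were tested and all 4 were called higher, beside 10.6% of all loci, with a median log2 fold change of 1.30. They were mir146a (2.28, SE 0.13) and dre-mir-146b-1 (0.75, SE 0.08), of a family that dampens signaling to NF-κB in mammals, mir155 (1.54, SE 0.24), which is induced in activated immune cells, and MIR21 (1.06, SE 0.17), known for its rise in injured tissue. The other 2 loci, MIR223 and a second locus named MIR21, had 0 reads. The list was drawn up with the changes of its members known, and its count is no independent evidence. The 4 loci did not share 1 order among the injured libraries. In injured 1, 2 and 3, mir146a stood at 5331, 4240 and 4672 RPM and dre-mir-146b-1 at 997, 959 and 947 RPM. Of these, mir146a was highest in injured 1, where the pair was lowest. dre-mir-146b-1 hardly differed among the injured libraries, with a coefficient of variation of 2.70%. mir155, at 97.6, 105 and 112 RPM, was lowest in injured 1, and MIR21, at 252, 311 and 217 RPM, was highest in injured 2.

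Of the 10 loci of the hypoxia list, named from work on human cells, 6 were tested and edgeR called 0, beside 12.8% of all tested loci. An unadjusted p below 0.05 was found at 1 of them, beside 41 of all 188 loci. DESeq2 called 0, beside 17% of all loci. With 6 tested loci, 0 calls are not told apart from these shares, and nothing is read from them. Their median log2 fold change was 0.14, against 0.03 over all tested loci. mir210, the miRNA best known for its induction by hypoxia, stood at 2707, 2749 and 2825 RPM in control 1, 2 and 3 and at 2758, 2492 and 2440 RPM in injured 1, 2 and 3. The groups overlapped, and the log2 fold change of mir210 was −0.15 (SE 0.07; edgeR adjusted p = 0.337). dre-mir-107, the most abundant locus of the list, had a log2 fold change of −0.0029 (SE 0.07). The locus with an unadjusted p below 0.05 was mir23a-1, at 6.47, 7.48 and 6.46 RPM in control 1, 2 and 3 and at 9.76, 11.7 and 8.02 RPM in injured 1, 2 and 3. The groups of mir23a-1 did not overlap, and its log2 fold change was 0.48 (SE 0.19; edgeR adjusted p = 0.177). The largest positive value, 1.01 (SE 0.54) at mir23a-2, came from a mean of 1.31 RPM in control libraries.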

How the data were processed

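Small RNAs of 3 control and 3 injured telencephalic hemispheres were analyzed. The authors deposited 1 table of unnormalized read counts at annotated miRNA loci for each library. Per the study's methods, adaptors were trimmed with Cutadapt to inserts of mature length, reads were aligned to GRCz11 with STAR without soft clipping and above a mapping quality limit, and loci were counted with HTSeq in union mode. The submitters' processing notes name BWA instead, and no source used here gives their versions. Per the labels, library molecules were also selected by size on a gel. Both arms of a hairpin are summed in a locus, and reads of other lengths or with several equal matches may be lost.

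The 5 HTSeq summary lines were left out. Of all reads, 11.4% to 12.3% lay outside miRNA loci. Symbols came from a table that named 331 of the 434 loci and 184 of the 188 tested. Counts were scaled by TMM over all loci, and CPM stands for counts per 1000000 after TMM. edgeR 4.0.16 (R 4.3.3) compared injured with control by the quasi-likelihood test, two-sided, with group as the only term, over loci with a mean TMM-normalized count above 10, and a locus was called at an adjusted p (Benjamini-Hochberg) below 0.05. SE were derived from the fold change and F. Profiles are log2 CPM with a prior count of 2. Replicates differed beyond sampling noise (chi-square per degree of freedom 42.8 to 1982), so none was deposited more than once. The code was tested on simulated counts.

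Named loci are the pair, the 5 loci nearest in profile, the tested loci next in level, and members of the lists. The members and lists were chosen with earlier results of these data known. Alternatives were DESeq2 1.42.0, limma-voom (limma 3.58.1), other scalings, filters and adjustment, thinning to equal depth, a block for the replicate number, and fits that leave out 1 library at a time. A filter on DESeq2-scaled counts was chosen after seeing the data.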

Additional observations from a re-analysis of the deposited data

How the results depend on the processing

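Under 17 alternatives the log2 fold change of dre-mir-462 ran from 0.71 to 1.03 and that of dre-mir-731 from 0.88 to 1.17, and neither changed sign. dre-mir-462 kept its call in 12 of the 17 and dre-mir-731 in 14. With Bonferroni adjustment the values stayed 0.88 and 1.04 but neither locus was called (edgeR adjusted p = 0.493 and 0.160), and 6 loci were called in all, a stricter limit by construction. The other lost calls came with 1 library left out, where fold changes spanned the same ranges and edgeR adjusted p ran from 0.0192 to 0.110 for dre-mir-462 and from 0.0175 to 0.0563 for dre-mir-731. Without 1 library, 10 to 24 loci were called in all, with 10 without control 1, control 3 or injured 3 and 14 without control 2. Upper-quartile scaling moved the median of all loci to −0.08 and gave 0.78 and 0.93 for dre-mir-462 and dre-mir-731, both called, with 11 loci higher. Bonferroni adjustment left 4 loci higher, 2 lower and 2 of the infection and inflammation list. DESeq2 called 32 loci, 9 of them lower, and thinning to 2475462 reads gave 13 loci higher. The cause of these shifts was not tested.

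The difference in the log2 ratio of the loci stayed positive in each alternative run, from 0.10 to 0.21 without 1 library. The rank of dre-mir-462 by likeness to dre-mir-731 ran from 1 to 3 without 1 library, and the 2 MIR142 loci were the nearest to the pair in 10 of 10 settings.

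The replicate numbers are shared between groups in the labels, and controls may be opposite hemispheres of injured fish, but no source says that a number marks a fish. Deviations of same-numbered libraries correlated across loci at 0.32, 0.12 and 0.08, and each library correlated best with its own number. Since not all of these lay above 0.1, the numbers were not taken as pairs in the main fit. Missing that limit does not show that the libraries are unpaired. With the replicate block the log2 fold changes were 0.89 (SE 0.06) for dre-mir-462 and 1.04 (SE 0.05) for dre-mir-731, and 22 loci were called. Without the block, in the main fit, the SE were larger, at 0.20 for dre-mir-462 and 0.19 for dre-mir-731. Depth limits the control libraries most, with 1678 to 3977 reads of dre-mir-731.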

Other observations

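Within the groups alone, loci without a called difference between the groups also deviated in the same way as the pair. These loci were named after their values had been seen. MIR144, a miRNA gene abundant in erythrocytes, deviated from its group means by −0.23, 0.26 and −0.03 in control 1, 2 and 3 and by −0.28, 0.30 and −0.02 in injured 1, 2 and 3 on the log2 scale, a root mean square distance of 0.08 from dre-mir-731 (rank 3 of 187). Between the groups it differed by 0.17 on the log2 scale (SE 0.18; edgeR adjusted p = 0.711). mir202, at 21 to 128 reads per library, was the nearest of all loci to dre-mir-462 in these deviations, at 0.07, and its difference between the groups was −0.04 on the log2 scale (SE 0.20; edgeR adjusted p = 0.943). The other erythrocyte locus, MIR451A, deviated by −0.03, 0.15 and −0.11 in the controls and by −0.12, 0.09 and 0.03 in the injured libraries.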
